A study of Homo sapiens with 6 samples.

Results

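Transcripts of 10 genes of the S100 family were described in RNA-seq of TFK1, an established human cholangiocarcinoma cell line, that is, a line from a cancer of the bile duct. The genes were taken from the expression table by symbol (S100A2, S100A4, S100A6, S100A9, S100A10, S100A11, S100A13, S100A14, S100A16 and S100P), and all 10 were found among its 23569 genes. Of the 6 libraries, 3 came from the negative control line (oeNC) and 3 from the line labelled STUB1 overexpression (oeSTUB1), neither of them treated. STUB1 is an E3 ubiquitin ligase and co-chaperone, and the comparison asked which transcripts differed once TFK1 cells carried extra STUB1. Per the study's methods, the lines were stable populations made by lentiviral infection and puromycin selection, so all 6 libraries came from selected cells. The methods do not say that a group came from more than 1 infected population. An effect of STUB1 and a difference between the populations therefore cannot be told apart. The labels do not say that the replicates were separate cultures, so p-values measure the spread between these libraries, which may be technical.

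S100 proteins are small calcium-binding proteins of the EF-hand superfamily that mostly act as dimers. Calcium binding opens a hydrophobic cleft through which a dimer binds its targets, among them annexins, the cytoskeleton and, outside the cell, receptors such as AGER. Most of the genes lie in a cluster on the long arm of chromosome 1, and several of them are abundant in epithelia and in carcinomas of the biliary tract and pancreas. STUB1 has itself been described as a binding partner of some S100 proteins through its tetratricopeptide repeats, a contact between proteins that RNA-seq does not measure.

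The level of a gene was given in FPKM, the number of sequenced fragments divided by the length of the transcript and by the library total, which allows levels of different genes to be set side by side. Library totals lay between 33106564 and 36744521 fragments. STUB1 itself stood at 32.9, 33.0 and 30.9 FPKM in oeNC and at 61.4, 75 and 61.9 FPKM in oeSTUB1, a log2 fold change of 1.03 (SE 0.10, adjusted p = 0.000642, limma), which fits the labels. Of the biliary epithelial markers, KRT8, KRT18 and KRT7 were abundant in all 6 libraries. KRT19 was low, at 0.374 to 0.529 FPKM in oeNC and 2.51 to 3.41 FPKM in oeSTUB1 (log2 fold change 2.47, adjusted p = 0.000176, limma). EPCAM fell from a mean of 6.51 to 2.96 FPKM (log2 fold change -1.13, adjusted p = 0.0104, limma). Of 10 epithelial markers 7 were called between the groups, 2 higher and 5 lower, or 70% beside 13.6% of all genes. Their summed FPKM ranged over 7433 to 8010 for oeNC against 4736 to 6275 for oeSTUB1. Most of each sum was KRT8 and KRT18, which were both called lower. KRT7 was higher in every oeSTUB1 library without a call (log2 fold change 0.47, adjusted p = 0.0818, limma). The part of these marker changes in the results for the S100 genes was not tested. In bulk RNA, fewer cells with a transcript and less of it per cell cannot be told apart. The library oeSTUB1 replicate 2 stood apart by gene length. Its median log2 deviation from the oeNC mean was 0.46 over 610 genes under 1000 bases and -0.23 over 4192 genes of 5000 bases and over, whereas the other libraries stayed between -0.04 and 0.08 in both classes. The 10 S100 transcripts are short, with recovered lengths of 471 to 2306 bases against a median of 3694 over the genes tested, so values without this library are given beside the results it moves most.

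Across the 10 genes, 1 rose in oeSTUB1, S100A13, and 1 fell, S100P (limma on log2(FPKM + 0.1), Benjamini-Hochberg adjusted p under 0.05). Of the 15353 genes tested, 7.01% were called higher and 6.59% lower, so 1 of 10 in each direction is close to the background. Both genes were called with a change of more than 1 on the log2 scale, as were 5.20% of the genes tested. The groups did not overlap for these genes only, with S100A13 higher in every oeSTUB1 library and S100P lower. Among all genes, the groups did not overlap in 21.5% with oeSTUB1 higher and in 17.3% with oeSTUB1 lower. The other 8 genes did not pass the test. The median log2 fold change of the 10 genes was 0.22 against 0.02 over all genes tested. Of the 10 values 8 were positive, as were 8083 of the 15353 over all genes tested. Without oeSTUB1 replicate 2, S100A10 was also called lower, and S100A11 and S100A16 turned to slightly negative values. In that fit S100A6 came to 0.003 and S100A4 to 0.04.

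The 10 genes ranged from barely detected to among the most abundant. In oeNC, S100A10 (mean 776 FPKM), S100A6 (683 FPKM), S100A11 (477 FPKM) and S100A4 (248 FPKM) led, followed by S100P (101 FPKM) and S100A16 (59.6 FPKM), then S100A9 (7.89 FPKM) and S100A13 (5.41 FPKM), and last S100A2 (0.858 FPKM) and S100A14 (0.223 FPKM). Among the oeNC libraries the ranges of neighbours in this order did not overlap, apart from those of S100A9 and S100A13. Among the oeSTUB1 libraries, the range of S100A10 (586 to 817 FPKM) also overlapped those of S100A6 (621 to 1063 FPKM) and S100A11 (432 to 616 FPKM). Within each oeSTUB1 library S100A6 was above S100A10, and S100A10 above S100A11. S100A6 took place 46 to 75 among all genes of a library and S100A10 place 56 to 80, so both belonged to the most abundant transcripts of these cells. Together the 10 genes took 0.140% to 0.148% of the fragments in oeNC and 0.123%, 0.186% and 0.133% in oeSTUB1 replicates 1, 2 and 3.

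**Figure D1:**
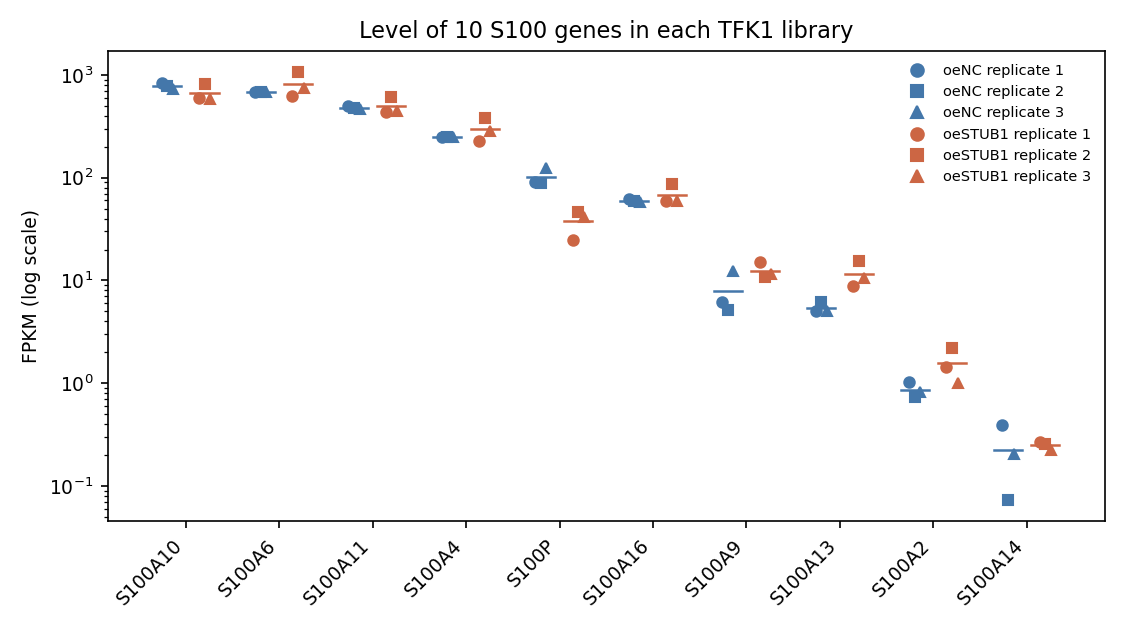
FPKM of the 10 S100 genes (log axis) in each of the 6 TFK1 libraries, ordered by the oeNC mean, with colour for the group, symbol for the replicate and a short line at each group mean. S100P lay lower in all 3 oeSTUB1 libraries and S100A13 higher, while the square of oeSTUB1 replicate 2 was the highest oeSTUB1 value for 8 of the 10 genes, S100A9 and S100A14 being the exceptions.

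The order changed at 2 places between the groups. These pairs were picked after their values were seen and are described without a test. S100A10 exceeded S100A6 in every oeNC library, with FPKM ratios of 1.22, 1.13 and 1.06, and lay below it in every oeSTUB1 library, with ratios of 0.964, 0.768 and 0.778. S100P exceeded S100A16 in oeNC by ratios of 1.45, 1.5 and 2.15, and fell short of it in oeSTUB1, where the ratios were 0.418, 0.542 and 0.706. Both orders were the same in all 3 libraries of a group.

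S100P, first found in placenta and known as an extracellular ligand of AGER and as a partner of the membrane linker EZR and the scaffold IQGAP1, gave the largest decrease. It is the only one of the 10 genes outside chromosome 1, at chr4:6693069-6697170 on the plus strand (GRCh38, GENCODE release 29). Its level was 90.4, 88.3 and 124 FPKM in oeNC and 25, 46.6 and 41.6 FPKM in oeSTUB1. The highest oeSTUB1 library was far below the lowest oeNC library, and the groups did not overlap. The group means were 101 ± 20 and 37.7 ± 11.3 FPKM (SD, n = 3), 2.68-fold lower in oeSTUB1. The log2 fold change was -1.45 (SE 0.24, 95% confidence interval -2.0 to -0.90, adjusted p = 0.00684, limma). Each oeNC library held 1441 to 2146 S100P fragments and each oeSTUB1 library 405 to 726. S100P kept its call with each library left out in turn, with log2 fold changes of -1.63 to -1.18 and adjusted p of 0.00267 to 0.033 (limma). In oeSTUB1 replicate 2, where short transcripts ran high, S100P also had its highest oeSTUB1 value.

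None of the genes named here as partners of S100P passed the test in all 6 libraries. EZR had a mean of 107 FPKM in oeNC and 101 FPKM in oeSTUB1 (log2 fold change -0.08, adjusted p = 0.526, limma). IQGAP1 had 67.9 and 68.6 FPKM (log2 fold change -0.02, adjusted p = 0.962, limma), and without oeSTUB1 replicate 2 it was called higher at 0.20 (adjusted p = 0.0156, limma). The receptor AGER stood at 1.18 to 1.39 FPKM in oeNC and 1.24 to 1.59 FPKM in oeSTUB1 (log2 fold change 0.10, adjusted p = 0.681, limma). S100PBP, which encodes a nuclear protein that binds S100P, had 5.82 and 5.91 FPKM (log2 fold change 0.02, 95% confidence interval -0.21 to 0.25, adjusted p = 0.915, limma).

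S100A13, which takes part in the release of FGF1 and IL1A from cells by a route outside the classical secretory pathway, was the member that rose. Its level was 5.05, 6.12 and 5.05 FPKM in oeNC and 8.83, 15.6 and 10.6 FPKM in oeSTUB1. All oeSTUB1 libraries lay above all oeNC libraries, with oeSTUB1 replicate 2 highest. The means were 5.41 ± 0.62 and 11.7 ± 3.53 FPKM (SD, n = 3), 2.16-fold higher in oeSTUB1, with a log2 fold change of 1.06 (SE 0.20, 95% confidence interval 0.60 to 1.52, adjusted p = 0.0122, limma). The fragments numbered 404 to 489 per library in oeNC and 702 to 1193 in oeSTUB1. Without oeSTUB1 replicate 2 the log2 fold change was 0.83 (adjusted p = 0.00261, limma). The call was lost without oeNC replicate 1 (log2 fold change 1.02, adjusted p = 0.0543, limma) and without oeNC replicate 3 (log2 fold change 1.02, adjusted p = 0.0567, limma). The gene shares 235 exon bases with S100A1 on the opposite strand. Whether the counting used strand is not given in the sources used here, and the part of this overlap in the S100A13 values was not tested. S100A1 itself had 5 to 11 fragments per library. A further 536 exon bases are shared on the same strand with AL162258.1, a non-coding transcript that is not among the genes of the table.

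Of the cargo of S100A13, both genes were below the expression minimum of a mean of 0.1 FPKM and were not tested. IL1A, a proinflammatory cytokine, had 1, 0 and 0 fragments in oeNC and 13, 6 and 9 in oeSTUB1. Each oeSTUB1 library held more IL1A fragments than the whole oeNC group. Per library total the ratio of the summed fragments was 29.2, with an exact binomial 95% interval of 4.83 to 1194 that covers counting error only. FGF1, a growth factor, had 2 fragments over the 3 oeNC libraries and 4 over the 3 oeSTUB1 libraries, too few to compare.

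The study concerned promoter DNA methylation, which was not measured in these libraries, so the density of CG dinucleotides before the starts of the S100 genes is given as background to the values. The windows are the 250 bases before a RefSeq transcript start on GRCh38.p14, written 5′ to 3′ on the gene's strand with every CG in capitals. RefSeq starts can differ from the ends of the GENCODE spans. The S100P window lies within the GENCODE span of its gene, and the S100A13 window shown lies upstream of the GENCODE span of its gene. S100P (chr4:6693628-6693877, plus strand) and S100A13 (chr1:153634362-153634611, minus strand, the farthest upstream of 3 listed starts) are shown as the genes called, and S100A6 (chr1:153535992-153536241, minus strand) as an abundant gene with no call:
S100P: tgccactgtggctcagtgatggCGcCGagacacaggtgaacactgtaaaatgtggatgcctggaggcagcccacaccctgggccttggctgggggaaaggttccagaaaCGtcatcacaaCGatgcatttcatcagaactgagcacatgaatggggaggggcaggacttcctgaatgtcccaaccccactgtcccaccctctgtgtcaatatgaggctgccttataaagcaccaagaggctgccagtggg
S100A13: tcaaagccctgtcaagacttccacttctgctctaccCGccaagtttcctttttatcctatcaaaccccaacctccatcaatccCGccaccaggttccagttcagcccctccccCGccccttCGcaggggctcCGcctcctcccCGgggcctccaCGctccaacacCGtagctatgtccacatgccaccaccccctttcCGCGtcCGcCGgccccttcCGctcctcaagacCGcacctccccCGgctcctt
S100A6: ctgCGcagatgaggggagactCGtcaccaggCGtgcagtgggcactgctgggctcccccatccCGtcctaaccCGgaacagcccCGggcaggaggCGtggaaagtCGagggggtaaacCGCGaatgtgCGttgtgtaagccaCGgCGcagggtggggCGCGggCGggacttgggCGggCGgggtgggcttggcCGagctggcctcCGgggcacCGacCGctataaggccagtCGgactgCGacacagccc

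The S100P window held 4 CG dinucleotides, the S100A13 window 15 and the S100A6 window 24, beside a median of 11 over 35116 windows of the same length, with quartiles of 3 and 23. The other S100A13 starts had 8 and 10. S100A10 equalled S100A6 with 24, more than in 76.3% of all windows, and S100A11 had 15. S100A4 had 7, S100A9 and S100A14 had 4 each, S100A2 had 3 and 4 at its 2 starts, and S100A16 had 6 and 1. The letters TATAAA, sought on both strands, occurred in the windows of S100P, S100A9, S100A4 and 1 start of S100A13, and in 10.7% of all windows. The letters TGANTCA, sought likewise, occurred at 1 start of S100A2 and in 6.57% of all windows. Of the genes called, S100P had a window poor in CG and S100A13 starts near the median. S100A9, S100A14 and S100A2, which were not called, had windows with as few CG as that of S100P or fewer. The most CG-dense windows belonged to S100A10 and S100A6, which were not called in the fit on all 6 libraries. A relation between CG density and the calls was not tested.

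S100A10 and S100A11 lie side by side on chromosome 1, at 151982915-151994390 and 152032506-152047907 (GRCh38, GENCODE release 29, both on the minus strand), and both bind annexins. S100A10 is the partner of ANXA2 at the plasma membrane, has lost the ability to bind calcium and acts as a receptor for plasminogen. It stood at 825, 778 and 723 FPKM in oeNC and at 599, 817 and 586 FPKM in oeSTUB1. Replicates 1 and 3 of oeSTUB1 were below every oeNC library, whereas oeSTUB1 replicate 2 was among them. S100A10 had a log2 fold change of -0.23 (SE 0.15, 95% confidence interval -0.57 to 0.11, adjusted p = 0.332, limma). Without oeSTUB1 replicate 2 the gene was called lower at -0.39 (adjusted p = 0.00473, limma). With a correction for gene length the value was -0.32 (adjusted p = 0.0164, limma) and with quantile normalization -0.24 (adjusted p = 0.032, limma). The fragments numbered 13439 to 19221 per library, so counting error is small beside the spread between libraries.

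S100A11, which binds ANXA1, stood at 497, 472 and 462 FPKM in oeNC and at 432, 616 and 446 FPKM in oeSTUB1. The oeSTUB1 values lay on either side of oeNC, 2 below and 1 above. Its log2 fold change was 0.04 (SE 0.14, 95% confidence interval -0.29 to 0.38, adjusted p = 0.875, limma) and turned to -0.12 (adjusted p = 0.107, limma) without oeSTUB1 replicate 2.

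The annexin partners were abundant as well. ANXA2 stood at 491 to 518 FPKM in oeNC and 470 to 586 FPKM in oeSTUB1 (log2 fold change 0.02, adjusted p = 0.925, limma). ANXA1, with 1707 to 1906 FPKM among the oeNC libraries and 1287 to 1572 FPKM among the oeSTUB1 libraries, was lower in every oeSTUB1 library without passing the test (log2 fold change -0.39, adjusted p = 0.0843, limma). It was called at -0.49 without oeSTUB1 replicate 2 (adjusted p = 0.00159, limma). ANXA11, also a partner of S100A6, had a log2 fold change of -0.11 (adjusted p = 0.389, limma). AHNAK, a very large scaffold protein bound by S100A10 with ANXA2, had 57.2, 60.0 and 57.3 FPKM in oeNC and 61.3, 26.9 and 54.2 FPKM in oeSTUB1 (log2 fold change -0.38, adjusted p = 0.396, limma). The low value of AHNAK was in oeSTUB1 replicate 2, in which long transcripts ran low, and without that library the log2 fold change was -0.01 (adjusted p = 0.895, limma). Of the genes around plasminogen activation, which S100A10 promotes at the cell surface, the activator PLAT rose from a mean of 0.235 to 0.712 FPKM (log2 fold change 1.31, adjusted p = 0.0232, limma). The PLAT call was lost without oeNC replicate 2, oeNC replicate 3 or oeSTUB1 replicate 1 (adjusted p of 0.0734 to 0.0874, limma). The activator PLAU, at 22.8 and 22.6 FPKM, and its receptor PLAUR, at 9.07 and 10.2 FPKM, were not called (log2 fold changes -0.02 and 0.16, adjusted p of 0.905 and 0.355, limma).

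S100A6 and S100A4 both lie in the main chromosome 1 cluster. S100A6, or calcyclin, a gene induced in growing cells, had 677, 688 and 683 FPKM in oeNC and 621, 1063 and 753 FPKM in oeSTUB1. The oeNC libraries were nearly equal, and oeSTUB1 spread from below to well above them. The log2 fold change was 0.21 (SE 0.18, 95% confidence interval -0.21 to 0.64, adjusted p = 0.481, limma), and it was 0.00 without oeSTUB1 replicate 2. Its partner CACYBP, the calcyclin-binding protein, rose from 33.8 to 44.3 FPKM (log2 fold change 0.38, adjusted p = 0.0313, limma), a call lost in 4 of the 6 fits with 1 library left out, namely those without any oeNC replicate or without oeSTUB1 replicate 1 (adjusted p of 0.0569 to 0.131).

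S100A4, known from cell motility and metastasis and as a binder of non-muscle myosin heavy chain, had 247, 251 and 247 FPKM in oeNC and 228, 382 and 285 FPKM in oeSTUB1. The pattern over the libraries was that of S100A6, with replicate 1 of oeSTUB1 lowest and replicate 2 highest. The log2 fold change was 0.23 (SE 0.17, 95% confidence interval -0.16 to 0.63, adjusted p = 0.405, limma) and 0.04 without oeSTUB1 replicate 2. Its myosin partner MYH9 had 81.8, 79.9 and 78.2 FPKM in oeNC and 135, 89.9 and 121 FPKM in oeSTUB1. MYH9 was higher in every oeSTUB1 library but missed the threshold (log2 fold change 0.50, adjusted p = 0.0547, limma), and without oeSTUB1 replicate 2 it was called at 0.67 (adjusted p = 0.000312, limma).

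S100A16, a widely expressed member, S100A14, an epithelial member, and S100A13 are placed one after another on chromosome 1. S100A16 had 62.3, 58.8 and 57.6 FPKM in oeNC and 59.6, 85.9 and 58.9 FPKM in oeSTUB1. Only oeSTUB1 replicate 2 lay outside the oeNC range. The log2 fold change was 0.17 (95% confidence interval -0.17 to 0.51, adjusted p = 0.476, limma) and -0.01 without oeSTUB1 replicate 2 (adjusted p = 0.932, limma). S100A14 was close to the detection limit, with 16, 3 and 9 fragments in oeNC and 11, 10 and 9 in oeSTUB1. In FPKM this is 0.390, 0.0732 and 0.207 against 0.270, 0.255 and 0.223, with oeSTUB1 inside the oeNC range. Per library total the ratio of summed S100A14 fragments was 1.12 with an exact binomial 95% interval of 0.645 to 1.94. That interval covers counting error only and leaves out the spread between libraries. The log2 fold change of S100A14 was 0.23 (SE 0.37, 95% confidence interval -0.61 to 1.08, adjusted p = 0.711, limma).

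S100A2, a member known from basal epithelium and as a gene often silenced or induced in carcinomas, was also scarce. It had 1.02, 0.735 and 0.817 FPKM in oeNC and 1.45, 2.23 and 1.01 FPKM in oeSTUB1, from 28 to 81 fragments. The groups overlapped narrowly, since oeSTUB1 replicate 3 lay just under oeNC replicate 1. S100A2 had a log2 fold change of 0.74 (SE 0.27, 95% confidence interval 0.12 to 1.36, adjusted p = 0.11, limma). It was called at 1.00 without oeSTUB1 replicate 3 (adjusted p = 0.0403, limma), and was at 0.47 without oeSTUB1 replicate 2 (adjusted p = 0.127, limma).

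**Figure D2:**
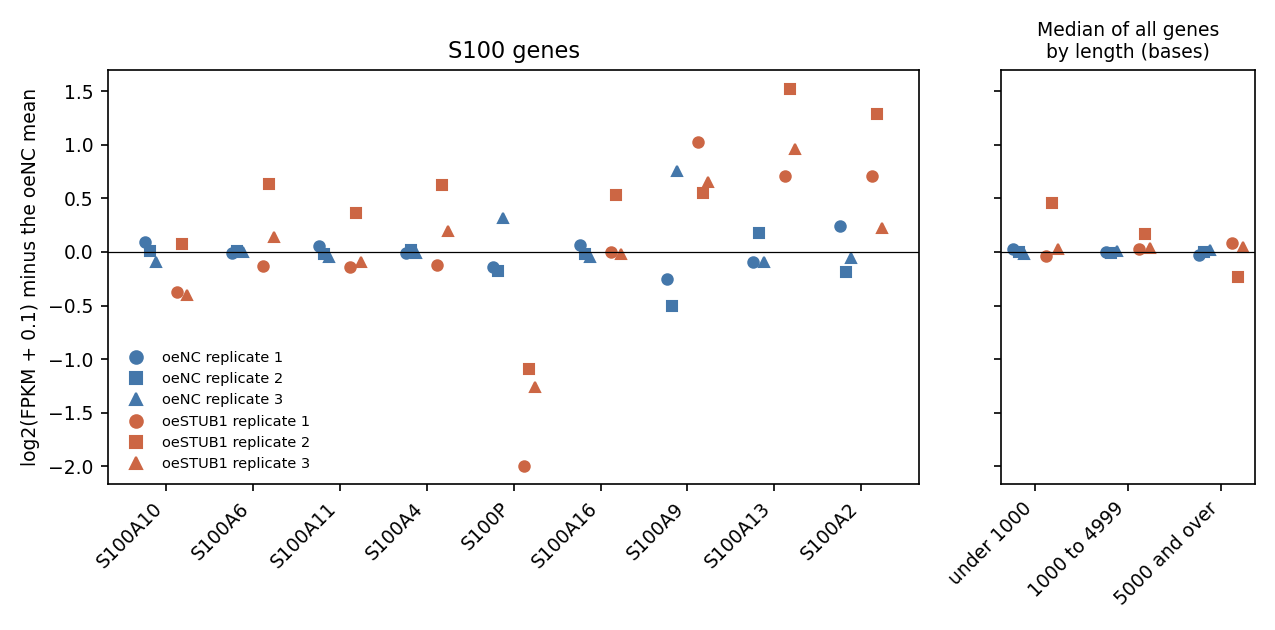
Deviation of each library from the oeNC mean on the log2(FPKM + 0.1) scale for 9 S100 genes (left; S100A14, with 3 to 16 fragments, is not drawn) and the median deviation of all genes in 3 length classes (right), with colour for the group and symbol for the replicate. The oeSTUB1 replicate 2 square lies at 0.46 for genes under 1000 bases and is the highest point for S100A6, S100A4, S100A11, S100A16, S100A13 and S100A2.

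S100A9 forms the calprotectin dimer with S100A8, and both are hallmark proteins of neutrophils and monocytes that carcinoma cells can also make. S100A9 had 6.13, 5.14 and 12.4 FPKM in oeNC and 15.0, 10.8 and 11.6 FPKM in oeSTUB1. The groups overlapped through oeNC replicate 3 alone, which was above 2 of the 3 oeSTUB1 libraries. For S100A9 the log2 fold change was 0.74 (SE 0.30, 95% confidence interval 0.04 to 1.44, adjusted p = 0.146, limma), and without oeNC replicate 3 it was 1.12 and called (adjusted p = 0.0132, limma). S100A8 had 1.35, 1.43 and 2.70 FPKM in oeNC and 5.28, 4.49 and 3.10 FPKM in oeSTUB1, again with oeNC replicate 3 highest of its group, and the groups did not overlap. S100A8 rose by a log2 fold change of 1.22 (SE 0.29, adjusted p = 0.0285, limma). The S100A8 call was lost without oeNC replicate 1, oeNC replicate 2 or oeSTUB1 replicate 1 (adjusted p of 0.0842 to 0.109). S100A9 exceeded S100A8 in every library, by FPKM ratios of 3.59 to 4.59 in oeNC and 2.39 to 3.74 in oeSTUB1.

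Markers of myeloid cells are given beside these genes, since calprotectin is typical of such cells. Of 10 markers 9 were listed and 8 were tested, and MPO was not listed. Of those tested 1 was called higher and 1 lower, or 25% beside 13.6% of all genes. The neutrophil marker FCGR3B had 0.423, 0.470 and 1.13 FPKM in oeNC and 1.81, 1.66 and 1.69 FPKM in oeSTUB1 (log2 fold change 1.35, adjusted p = 0.0267, limma). CSF3R, another neutrophil marker, had 0.468, 0.663 and 1.60 FPKM against 2.10, 1.03 and 1.11 FPKM (log2 fold change 0.67, adjusted p = 0.328, limma). Both had their highest oeNC value in replicate 3, as S100A9 and S100A8 did. So did PTPRC, CD14, LYZ, ITGAM and CD163 of the same list, whereas CD68 and ELANE did not. Between the groups, other genes of the list went differently. ITGAM had 0.616, 0.431 and 0.712 FPKM in oeNC against 0.440, 0.263 and 0.370 FPKM in oeSTUB1 (log2 fold change -0.58, adjusted p = 0.146, limma), and ELANE, a neutrophil granule enzyme, had 0.632, 0.445 and 0.177 FPKM against 0.189, 0.609 and 0.399 FPKM (log2 fold change -0.04, adjusted p = 0.964, limma). LYZ and CD14 had log2 fold changes of 0.55 and 0.06 (adjusted p of 0.386 and 0.832, limma). CD68, a lysosomal marker also found in other cells, fell from 27.2 to 19.2 FPKM (log2 fold change -0.50, adjusted p = 0.00303, limma), and the summed FPKM of the list, of which CD68 is the largest share, ranged over 34.5 to 38.3 for oeNC against 29.6 to 30.3 for oeSTUB1. PTPRC, the common leukocyte marker, was at 0.0575 to 0.209 FPKM in oeNC and 0.130 to 0.280 FPKM in oeSTUB1, and CD163 had 0 to 5 fragments per library. The part of such transcripts in the S100A9 and S100A8 values was not tested.

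The family holds 11 other genes that were looked up, of which 6 were listed and 4 tested. 2 of them were called higher, S100A8 and S100A12, and none lower, beside 7.01% higher and 6.59% lower over all genes tested. S100A12, the third myeloid member beside S100A8 and S100A9, had 1, 1 and 2 fragments in oeNC and 5, 7 and 3 in oeSTUB1. It passed the expression minimum only through oeSTUB1, with means of 0.077 FPKM in oeNC and 0.305 FPKM in oeSTUB1, so its call has little weight. The fitted log2 fold change of S100A12 was 1.16 (adjusted p = 0.039, limma), and the ratio of summed fragments per library total was 3.91 with an exact binomial 95% interval of 1.25 to 16.2. Its call was lost in 5 of the 6 limma fits with 1 library left out, all but that without oeSTUB1 replicate 3. The call was also lost in the fit on fragments of all 6 libraries (adjusted p = 0.129, limma-voom). The same held with no expression minimum (adjusted p = 0.0537, limma) and with a pseudocount of 1 (adjusted p = 0.0569, limma). S100A3, next to S100A4 and known from hair cuticle, had 5.32, 5.44 and 7.45 FPKM in oeNC and 7.86, 13 and 9.47 FPKM in oeSTUB1. All oeSTUB1 values were above oeNC, but the gene missed the threshold (log2 fold change 0.71, SE 0.20, adjusted p = 0.055, limma). S100A3 passed with the length correction (adjusted p = 0.0152, limma) and without oeSTUB1 replicate 1 (adjusted p = 0.0401, limma) or oeSTUB1 replicate 2 (log2 fold change 0.52, adjusted p = 0.0452, limma). S100A1, a muscle member, had a log2 fold change of -0.38 (adjusted p = 0.35, limma) on 5 to 11 fragments. S100A5 with 1 to 6 fragments and S100A7 with 0 or 1 were below the minimum, and S100A7A, S100A7L2, S100B, S100G and S100Z were not listed. Of 7 genes that carry an S100 domain fused to a longer protein, FLG and TCHH were listed below the minimum, and FLG2, HRNR, RPTN, CRNN and TCHHL1 were not listed.

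**Figure D3:**
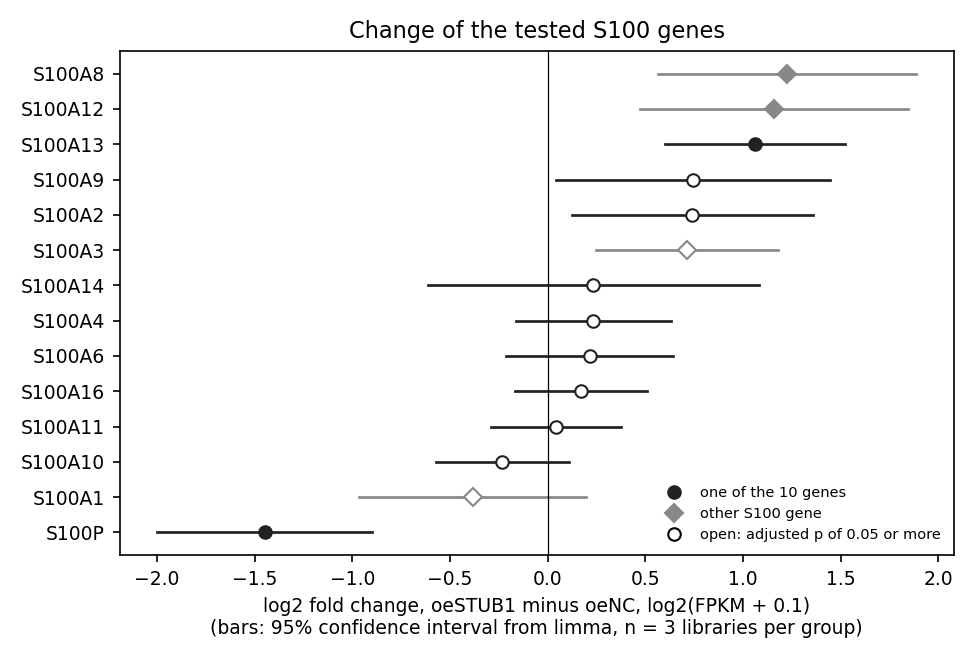
Log2 fold change of oeSTUB1 minus oeNC on the log2(FPKM + 0.1) scale for the 14 tested S100 genes, with 95% confidence intervals from limma (n = 3 libraries per group), circles for the 10 genes, diamonds for other members and filled symbols for an adjusted p under 0.05. S100P at -1.45 stands opposite S100A13, S100A12 and S100A8 at 1.06 to 1.22, and S100A9, S100A2 and S100A3 have positive values near 0.7 without a call.

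Among 46 genes whose proteins are known to work with S100 proteins, 45 were listed and 39 tested, and 5 were called higher and 4 lower, STUB1 included. Their median log2 fold change was 0.03 and 23.1% were called, beside 13.6% of all genes. Among those higher were PLAT, STUB1, TPM1 and CACYBP. TPM1, a tropomyosin, stood at 29.4 to 35.8 FPKM in oeNC and 48.5 to 73.7 FPKM in oeSTUB1 (log2 fold change 0.95, adjusted p = 0.00756, limma). Those lower were the annexins ANXA4 (log2 fold change -0.51, adjusted p = 0.0132) and ANXA6 (-0.37, adjusted p = 0.0224), the non-muscle myosin MYH14 (-0.84, adjusted p = 0.00164) and the potassium channel KCNK3 (-1.14, adjusted p = 0.00343), all by limma. ANXA4 lost its call without any 1 of the oeNC replicates (adjusted p of 0.0608 to 0.0673), and ANXA6 in every fit with 1 library left out except that without oeSTUB1 replicate 2. The receptor TLR4, which calprotectin can activate, was below the minimum, with 5, 5 and 13 fragments in oeNC and 46, 19 and 45 in oeSTUB1. Its summed fragments gave a ratio of 4.99 per library total with an exact binomial 95% interval of 3.16 to 8.20. PLG, which encodes plasminogen, was not listed.

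Of 48 other EF-hand genes 45 were listed and 41 tested, with a median log2 fold change of 0.09. Of those tested 4 were called higher and 2 lower, or 14.6% beside 13.6% of all genes. SPARC, a secreted matrix protein, rose most, from 0.0417, 0.0669 and 0.331 FPKM in oeNC to 1.59, 1.28 and 1.31 FPKM in oeSTUB1 (log2 fold change 2.78, adjusted p = 0.00372, limma). EFHD2 (log2 fold change 0.80, adjusted p = 0.00542), HPCAL1 (0.62, adjusted p = 0.0173) and NCALD (0.48, adjusted p = 0.0406) were the others that rose by limma. The calmodulin gene CALM2 (log2 fold change -0.56, adjusted p = 0.0275) and GCA, or grancalcin (-0.89, adjusted p = 0.00386), fell, also by limma. SPARC, EFHD2 and GCA kept their calls with each library left out in turn. HPCAL1 lost its call without oeNC replicate 1 or 2 (adjusted p of 0.0815 and 0.082), while CALM2 kept its call only without oeSTUB1 replicate 2 and NCALD likewise.

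**Figure D4:**
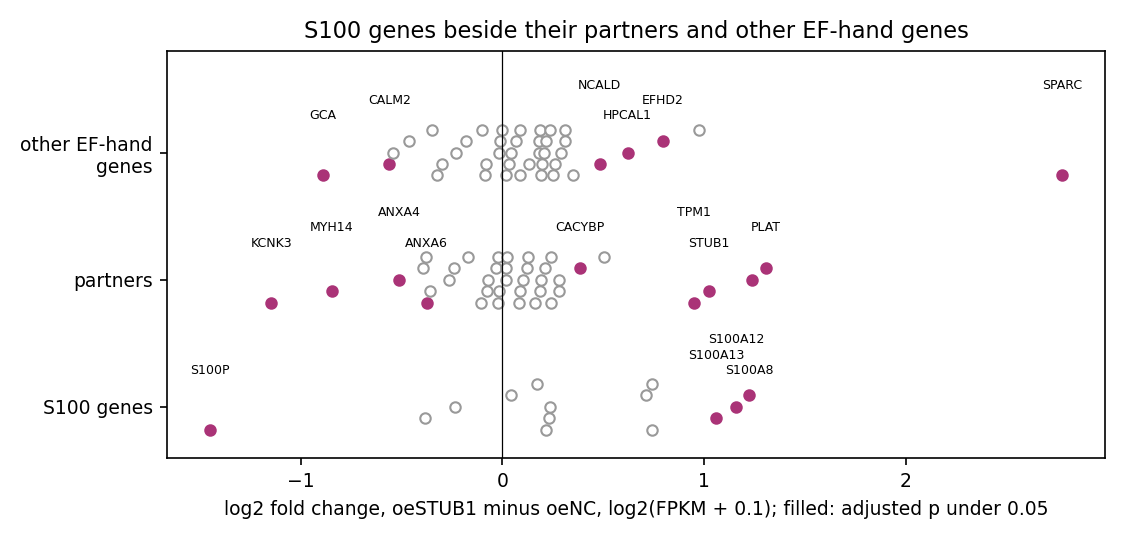
Log2 fold change of oeSTUB1 minus oeNC on the log2(FPKM + 0.1) scale for the 14 tested S100 genes, 39 partners and 41 other EF-hand genes, 1 point per gene, filled where the adjusted p was under 0.05 and named for most of these, with heights spread only for legibility. Most partners lie near their median of 0.03, and 4 S100 genes, 9 partners and 6 other EF-hand genes are filled.

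Genes beside the S100 genes on the chromosomes were looked at in the same fit. From S100A9 to S100A1 the cluster on chromosome 1 holds 7 of the 10 genes, and 10 of its 11 tested S100 genes had positive log2 fold changes, S100A1 being the exception. Over chromosome 1 as a whole, 852 of the 1493 tested genes had positive values. Without oeSTUB1 replicate 2, S100A16 was at -0.01, S100A6 at 0.003 and S100A4 at 0.04. S100A14 was at -0.15 without oeNC replicate 2. The next genes on its far side, CHTOP, SNAPIN, ILF2, NPR1 and INTS3, had log2 fold changes of 0.07, 0.20, 0.35, 0.11 and 0.10, none of them called (adjusted p of 0.0609 to 0.803, limma). Next to S100A10 and S100A11, THEM4 stood at 7.68 and 7.77 FPKM (log2 fold change 0.02). Of those next to S100P on chromosome 4, TBC1D14 fell from 21.6 to 13.6 FPKM (log2 fold change -0.67, adjusted p = 0.0103, limma). That call was at the threshold without oeNC replicate 3 (adjusted p = 0.05, limma). The closest listed genes to S100P, MRFAP1L1 and BLOC1S4 after it and MRFAP1 before it, had log2 fold changes of 0.03, 0.00 and 0.28 and were not called. In all, 2 of 16 tested neighbours were called, both lower, among 30 looked up, or 12.5% beside 13.6% of all genes. Over the 1493 tested genes of chromosome 1 the median log2 fold change was 0.05.

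**Figure D5:**
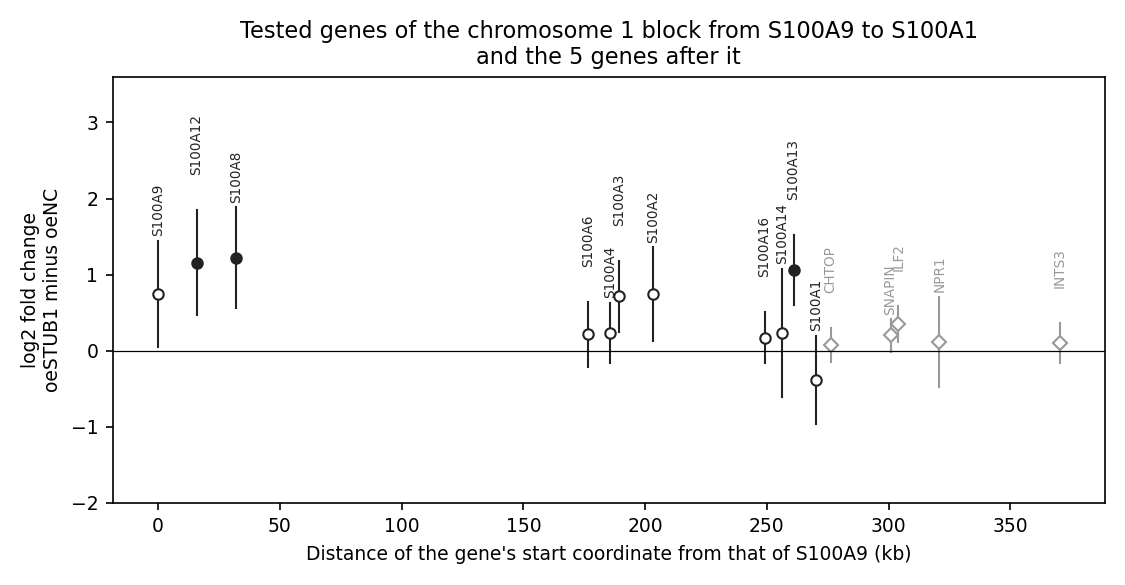
Log2 fold change of oeSTUB1 minus oeNC with 95% confidence intervals from limma (n = 3 libraries per group) against the distance in kb of each gene's start coordinate from that of S100A9, for the tested S100 genes of the main chromosome 1 cluster (black circles) and the 5 genes beyond it (grey diamonds), filled where the adjusted p was under 0.05. S100A12, S100A8 and S100A13 are filled, S100A1 is the only S100 gene here with a negative value, and the 5 genes beyond lie between 0.07 and 0.35.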

How the data were processed

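RNA-seq of 3 oeNC and 3 oeSTUB1 TFK1 libraries was used, with groups and replicate numbers from the sample titles. The authors deposited FPKM values for 23569 genes by symbol. The submitters' processing notes name fastp 0.20.1, HISAT2 2.1.0, HTSeq 0.11.2, R 3.2.0, DESeq2 1.22.2 and GRCh38.p13, without their order. The annotation and the use of strand are not given in the sources used here. FPKM divides by gene length and by the library total, which does not correct a shifted length profile of a library. In oeSTUB1 replicate 2 the short transcripts did not all move alike. Among the 10 S100 genes, those under 1000 bases had log2 deviations from the oeNC mean of -1.10 (S100P) to 0.64 (S100A6) in that library, with S100A10 at 0.08. Value columns that belong to no sample numbered 0.

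Whole fragments were recovered from the FPKM steps for 100.0% of genes, with recomputed values within 4.9e-06. Fragments on listed genes were 99.7% of each total. Replicates differed by more than sampling noise (chi-square per degree of freedom 3.48 to 82.6), so none was a copy. Fragment intervals cover counting error only.

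limma 3.58.1 in R 4.3.3 (lmFit, eBayes with an intensity trend, two-sided) was run on log2(FPKM + 0.1) for the 15353 genes whose mean over the libraries reached 0.1 FPKM, with Benjamini-Hochberg adjustment over all of them. The pseudocount makes the fold change of a low gene smaller than it is. Called means an adjusted p under 0.05. The procedure was tested on simulated data with large changes and no library of shifted length profile. That test does not cover small changes or a library such as oeSTUB1 replicate 2. Where a text value is without a named library, the same fit was repeated on 5 libraries. Other alternatives were pseudocounts of 1 and 0.01, no minimum or a minimum of 1, median-ratio scaling, quantile normalization, a lowess correction for gene length, no trend, a replicate block, limma-voom on recovered fragments, a log2 fold change over 1, an adjusted p under 0.1, and the log2 ratio of group means.

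The members and lists were chosen with earlier results of these data known. All members and other S100 genes were named, and partners, EF-hand genes and neighbours where called or where they are a known partner of a member. Some called genes of these lists enter the counts but are not reported here by name. The IL1A, TLR4 and FGF1 fragments are given under that rule. The 5 protein-coding genes on either side of each S100 block were the neighbours, taken from RefSeq, and 1 was matched by its older symbol. Lists of lymphocyte, fibroblast, endothelial and squamous keratinocyte markers had 8, 8, 5 and 8 genes, of which 3, 2, 1 and 1 were tested and 0 were called in each.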

Additional observations from a re-analysis of the deposited data

How the results depend on the processing

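The replicate numbers did not pair the libraries: the correlation of deviations from the group means was -0.05, -0.05 and 0.06 for libraries with the same number. With the replicate block, 1488 genes were called beside 2088 without it, the members kept 1 higher and 1 lower, and S100A8 (adjusted p = 0.0581), S100A12 (0.0781), CACYBP (0.0626), ANXA6 (0.067) and NCALD (0.0929) lost their calls by limma.

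Members called higher ranged from 0 to 2 and members called lower from 1 to 2 with 1 library left out. All genes called ranged from 933 to 4112, the latter without oeSTUB1 replicate 2. Members called lower were 2 with quantile normalization and with the gene length correction, S100A10 being added. All genes called were 3322 with the length correction, 798 with a log2 fold change over 1 and 3246 at an adjusted p under 0.1. S100P passed in every fit run, and S100A13 in all but the fits without oeNC replicate 1 or 3.

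With no trend, S100A8 (adjusted p = 0.0515), CACYBP (0.0676), ANXA6 (0.0506), CALM2 (0.0533) and NCALD (0.0612) lost their calls by limma, and with no minimum S100A8 (0.0656), PLAT (0.0538), CALM2 (0.0591) and NCALD (0.0688) did. NCALD also lost its call with median-ratio scaling (0.0552). ANXA1 and MYH9 passed with the length correction and with limma-voom.

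Some log2 fold changes of genes with no call turned sign. S100A11 was -0.0253 with quantile normalization, -0.0464 with the length correction and -0.12 to 0.136 with 1 library left out. With 1 library left out, S100A14 ran from -0.153 to 0.597, S100A16 from -0.00698 to 0.265, ANXA2 from -0.0835 to 0.0755, IQGAP1 from -0.149 to 0.202 (called without oeSTUB1 replicate 2), AGER from -0.00438 to 0.168, PLAU from -0.108 to 0.0407 and S100PBP from -0.0163 to 0.0890. ANXA2 was -0.00598 with median-ratio scaling and -0.0550 with quantile normalization, S100PBP was -0.00555 with median-ratio scaling, and IQGAP1 was 0.0294 with the length correction and 0.0159 as the log2 ratio of group means. The causes were not tested. S100A14, S100A12, S100A1, IL1A and FGF1 rest on too few fragments for small differences to be seen.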
